A study of Mus musculus with 3 samples.

Results

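The nuclear genes for the subunits and assembly factors of oxidative phosphorylation were followed in mouse liver across 3 diets. A gene belonged to the group if its symbol began with Nduf, Uqcr, Uqcc, Atp5, Cox4 to Cox8 or Cox10 to Cox19, or was Sdha, Sdhb, Sdhc, Sdhd or Cycs. The rule used no measured value. It took 79 of the 8251 genes on the array, read by 107 of the 10833 probe sets with 1 gene symbol. Of these genes 31 belonged to complex I, 4 to complex II, 10 to complex III, 19 to complex IV and 14 to ATP synthase, and the remaining gene was Cycs, for cytochrome c.

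All mice were males homozygous for an apoE knockout on a C57BL/6JxOLA129 background, 3 months old when assigned, and were fed semi-purified diets with 30% of the energy as fat for 12 weeks. The control diet held 1.0% linoleic acid by weight (10 mice assigned), and the test diets held as much of either c9,t11-CLA (10 mice) or t10,c12-CLA (9 mice). CLA stands for conjugated linoleic acid, and the isomers differ in the position and geometry of their double bonds. The sample labels speak of a western diet, which differs from the design text. Liver RNA was read on 1 Affymetrix array per diet, and the labels do not state whether that RNA came from 1 mouse or from several. No wild-type liver was included, so every group lacked apolipoprotein E. A single array per diet gives no spread between mice and no test, so each difference compares those arrays.

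Oxidative phosphorylation makes most of the ATP of a liver cell at the inner mitochondrial membrane. Complex I takes electrons from NADH and complex II from succinate, both pass them to ubiquinone, complex III hands them on to cytochrome c, and complex IV reduces oxygen. The protons pumped on the way drive ATP synthase. Each complex except complex II joins some subunits encoded in mitochondrial DNA to many nuclear-encoded ones, and assembly factors help to build it without staying in it.

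Values are MAS5 signals, a linear hybridisation intensity per probe set, and a difference is the log2 of the ratio of the signals of 2 arrays. A gene counted as measured in a comparison if its signal was above 490.3, the median of all signals, on both arrays; this level is called the floor. Levels of different genes are not compared, because probe sets differ in brightness. Of the 79 members 69 (87.3%) lay above the floor on all 3 arrays, against 50.3% of all genes. A further 3 lay above it on some arrays only, and 7 lay below it on every array. Repeated probe sets gave the technical error. Over all genes with a pair of measured probe sets the SD of a log2 difference was 0.49 for c9,t11-CLA against control (529 pairs), 0.40 for t10,c12-CLA against control (566 pairs) and 0.50 between the CLA diets (553 pairs). This error does not hold the variation between mice. In liver tissue, fewer cells of a type and less RNA per cell cannot be told apart.

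On the c9,t11-CLA array the oxidative phosphorylation genes lay slightly below control, with a few members far from the rest. The median log2 difference of the 69 measured members was -0.10, against 0.02 for all 4324 measured genes, and 44 members (63.8%) were below 0, against 47.8% of all genes. At least 2-fold lower were 3 members, the complex III assembly factor Uqcc1, the complex III subunit Uqcr10 and the complex I subunit Ndufa2, where 2.78% of all genes were. No member above the floor on both arrays was 2-fold higher, against 2.98% of all genes; Cox6b2, below the floor on control, is described with complex IV. At 1.5-fold the counts were 8 lower and 6 higher, against 11.1% and 13.0% of all genes. These shares of large differences were near the background. When the arrays were set to equal medians, the median of all genes moved to -0.16, that of the members to -0.29, and 53 of 69 members (76.8%) were below 0 against 63.0% of all genes.

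On the t10,c12-CLA array the members again lay slightly below the same control array. Their median log2 difference was -0.13 over 69 members, against -0.01 over 4391 genes, and 46 members (66.7%) were below 0 against 50.9% of all genes. Ndufb3, of the membrane arm of complex I, and Uqcc1 were at least 2-fold lower, where 1.87% of all genes were, and no member above the floor on both arrays was 2-fold higher, against 2.05% of all genes. At 1.5-fold 9 members were lower and 1 was higher, against 8.70% and 9.31% of all genes. The member at least 1.5-fold higher was Atp5md, the ATP synthase subunit also called DAPIT. Its 1 probe set has an identifier that marks cross-hybridisation or incomplete selection. Both comparisons share the control array, so a high or low signal there enters both.

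Between the CLA diets, given at the same dose for the same time, the members as a group were close to the other genes. The median log2 difference of t10,c12-CLA minus c9,t11-CLA was -0.07 over 71 members, against -0.05 over 4382 genes, and with equal medians it was 0.03. Below 0 lay 41 members (57.7%), against 54.2% of all genes, and with equal medians 31 (43.7%) against 45.6%. The member at least 2-fold higher was Uqcc1, where 3.47% of all genes were. Ndufaf4, Ndufb3 and Atp5o were at least 2-fold lower, where 2.56% of all genes were. At 1.5-fold 6 members were higher and 8 lower, against 11.5% and 12.8% of all genes. Of the 69 members above the floor everywhere, 44 (63.8%) stayed within 1.5-fold in all 3 comparisons, against 57.5% of 4154 genes.

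**Figure D1:**
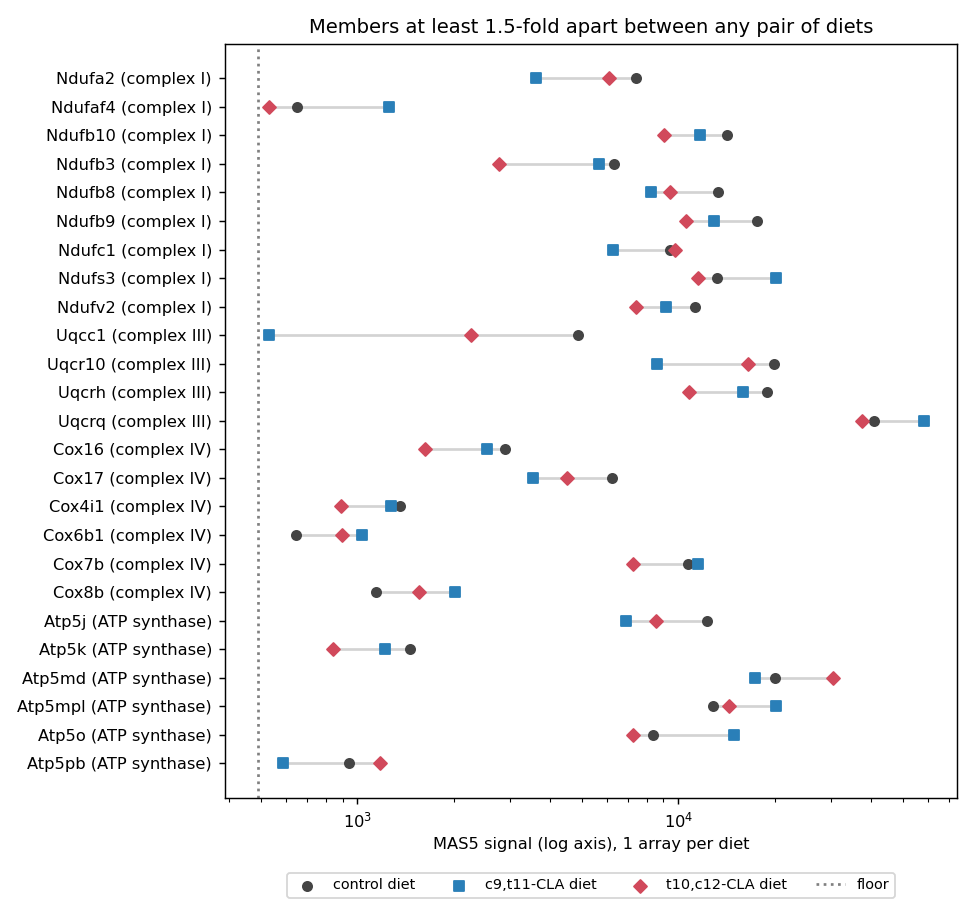
MAS5 signal (log axis) on each of the 3 diet arrays for the 25 members above the floor on all arrays and at least 1.5-fold apart between any pair of diets, with a grey line from the lowest to the highest. The widest line is that of Uqcc1, from 532.5 on c9,t11-CLA to 4887 on control; 1 array was measured per diet, so points carry no error bar.

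Uqcc1, an assembly factor that acts with Uqcc2 on newly made cytochrome b, gave a signal of 4887 on control, 532.5 on c9,t11-CLA and 2255 on t10,c12-CLA. Control was highest and c9,t11-CLA lowest, just above the floor. The signal was 9.18-fold lower on c9,t11-CLA and 2.17-fold lower on t10,c12-CLA than on control, and 4.24-fold higher on t10,c12-CLA than on c9,t11-CLA. Only 1 probe set read this gene. Among all 4324 measured genes its difference of -3.20 was the lowest. Its partners did not share this: Uqcc2 gave 1964 on control, 1741 on c9,t11-CLA and 2033 on t10,c12-CLA, and Uqcc3, another complex III assembly factor, gave 773.4 on control, 727.3 on c9,t11-CLA and 733.7 on t10,c12-CLA, with no difference beyond 0.22 on the log2 scale.

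Beside Uqcc1, 5 members above the floor on both arrays compared were 2-fold apart somewhere, and each stood out on 1 array. Uqcr10, a small subunit of complex III, gave 19834 on control, 8602 on c9,t11-CLA and 16479 on t10,c12-CLA, and was 2.31-fold lower on c9,t11-CLA than on control. Ndufa2, an accessory subunit of the matrix arm of complex I, gave 7412 on control, 3598 on c9,t11-CLA and 6069 on t10,c12-CLA, and was 2.06-fold lower on c9,t11-CLA; after quantile normalization its log2 difference was -0.98. For both genes c9,t11-CLA was the low array.

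Ndufb3 showed the reverse pattern, with 6322 on control, 5680 on c9,t11-CLA and 2775 on t10,c12-CLA. It was 2.28-fold lower on t10,c12-CLA than on control and 2.05-fold lower than on c9,t11-CLA, so t10,c12-CLA was the low array. With equal medians the log2 difference between the CLA diets was -0.93, short of 2-fold. Ndufaf4, a complex I assembly factor, gave 648.2 on control, 1252 on c9,t11-CLA and 531.0 on t10,c12-CLA. It was high on c9,t11-CLA, with a log2 difference of 0.95 from control, and 2.36-fold lower on t10,c12-CLA than on c9,t11-CLA, although its t10,c12-CLA signal was near the floor. Atp5o, the subunit OSCP that ties the catalytic head of ATP synthase to its stator, gave 8324 on control, 14875 on c9,t11-CLA and 7247 on t10,c12-CLA. Here too c9,t11-CLA was the high array, at 0.84 from control, and t10,c12-CLA was 2.05-fold lower than c9,t11-CLA, or -0.93 on the log2 scale with equal medians, again short of 2-fold.

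The promoters of the members above the floor and 2-fold apart are shown because the factors NRF1 and GABP act on many nuclear respiratory genes. The RefSeq promoter table of build GRCm38.p6 held a window for 64 of the 79 members, 70 windows in all. The 250 bases before the annotated start are printed for 5 of the 6 genes, 5′ to 3′ along the gene, in lower case. Capitals mark any of 4 short motifs searched on both strands: the NRF1 core TGCGCA, which is its own reverse complement, the ETS core CCGGAAG, of the kind that GABP binds, the YY1 core GATGGCG, and the CCAAT box. The windows lie at chr2:155930311-155930560 (minus strand), chr11:4704345-4704594 (minus strand), chr1:58586147-58586396 (plus strand), chr4:24897833-24898082 (plus strand) and chr16:91931631-91931880 (minus strand), in the order printed.
Uqcc1: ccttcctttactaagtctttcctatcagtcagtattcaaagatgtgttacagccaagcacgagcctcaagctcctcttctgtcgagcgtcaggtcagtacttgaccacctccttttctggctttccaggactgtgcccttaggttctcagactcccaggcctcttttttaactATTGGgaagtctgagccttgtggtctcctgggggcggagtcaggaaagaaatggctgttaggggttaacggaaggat
Uqcr10: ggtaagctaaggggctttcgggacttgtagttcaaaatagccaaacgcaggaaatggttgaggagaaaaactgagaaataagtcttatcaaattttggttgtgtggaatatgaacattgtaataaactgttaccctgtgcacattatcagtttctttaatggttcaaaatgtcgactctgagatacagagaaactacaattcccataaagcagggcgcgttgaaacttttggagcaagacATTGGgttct
Ndufb3: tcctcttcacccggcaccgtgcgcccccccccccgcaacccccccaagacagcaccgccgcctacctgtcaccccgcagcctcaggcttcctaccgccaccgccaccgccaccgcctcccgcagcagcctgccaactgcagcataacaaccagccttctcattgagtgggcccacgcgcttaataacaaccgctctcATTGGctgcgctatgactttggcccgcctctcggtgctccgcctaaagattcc
Ndufaf4: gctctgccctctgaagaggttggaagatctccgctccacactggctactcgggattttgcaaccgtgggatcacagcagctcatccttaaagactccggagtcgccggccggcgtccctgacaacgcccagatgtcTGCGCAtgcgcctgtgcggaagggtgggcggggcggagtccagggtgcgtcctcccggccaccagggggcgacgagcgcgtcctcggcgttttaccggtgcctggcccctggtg
Atp5o: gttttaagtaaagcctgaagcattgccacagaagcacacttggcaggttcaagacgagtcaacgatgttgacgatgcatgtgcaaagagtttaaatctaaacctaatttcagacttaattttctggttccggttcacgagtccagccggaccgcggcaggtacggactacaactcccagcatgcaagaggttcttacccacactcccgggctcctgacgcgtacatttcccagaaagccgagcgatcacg

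Uqcc1, Uqcr10 and Ndufb3 each held 1 CCAAT box and no other motif searched. Ndufaf4 held 1 TGCGCA, at position -114 from the start, and Atp5o held none of the motifs. Over all members TGCGCA was in 14 of 70 windows (20.0%), against 9.85% of 8295 windows of the other protein-coding genes on the array and 6.43% of all 32851 windows of the table. CCGGAAG was also in 14 windows (20.0%), against 11.3% and 6.91%. GATGGCG was in 4 (5.71%), against 3.15% and 2.18%, and CCAAT in 30 (42.9%), against 34.6% and 33.8%. Counted by gene, with any window, the gaps to the 6469 other array genes were smaller. TGCGCA was in 13 of 64 members (20.3%) against 12.0%, and CCGGAAG in 13 (20.3%) against 13.6%. GATGGCG was in 3 (4.69%) against 3.85%, and CCAAT in 29 (45.3%) against 40.1%. No printed window held over 1 match, so none overlapped there, and a match is a run of letters, not a bound site. The 13 measured members with TGCGCA had median log2 differences from control of -0.16 on c9,t11-CLA and -0.06 on t10,c12-CLA, beside -0.18 and -0.20 for the 42 members whose windows lacked it. The 13 with CCGGAAG stood at -0.18 and -0.12, beside -0.17 and -0.16 for 42 without.

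**Figure D2:**
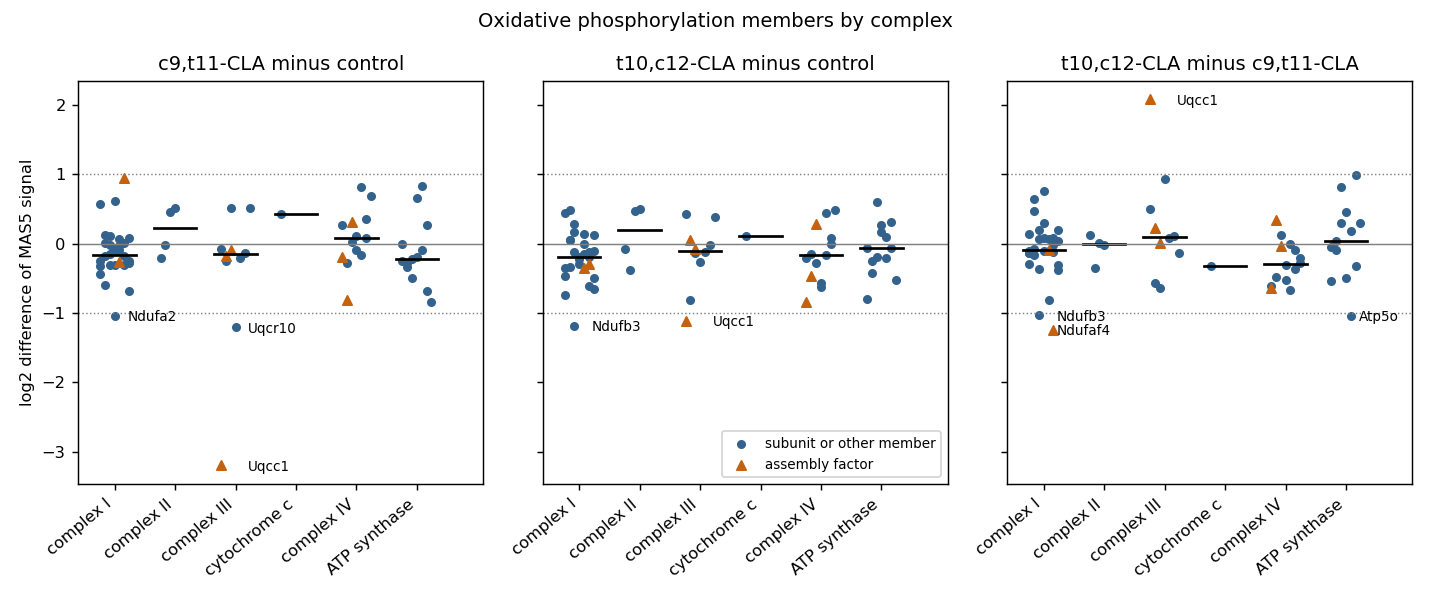
Log2 difference of MAS5 signal of each measured member (points; triangles for assembly factors) by complex, with the median of the complex as a black line and dotted lines at 2-fold. Uqcc1 stands apart in all 3 panels, at -3.20, -1.12 and 2.08, while the medians of the complexes with several members lie between -0.29 and 0.22.

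Complex I, the largest group, lay slightly below control on both CLA arrays. Of 28 measured genes, 19 were below control on c9,t11-CLA (median -0.16, range -1.04 to 0.95) and 20 on t10,c12-CLA (median -0.20, range -1.19 to 0.49). With equal medians these counts were 25 and 22, and with quantile normalization 19 and 19. Of all genes 47.8% and 50.9% were below control in the deposited scaling. With equal medians, which lowered both differences for every gene, these shares were 63.0% and 58.9%, and with quantile normalization 50.2% and 51.6%. Between the CLA diets 17 of 29 were below 0, against 54.2% of all genes, with a median of -0.10, or 0.01 with equal medians.

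Core subunits of complex I, several of which carry the flavin or iron-sulfur centres, differed among themselves in direction. Ndufv1, which binds NADH, was level with 24607 on control, 23211 on c9,t11-CLA and 24517 on t10,c12-CLA. Its neighbour Ndufv2 gave 11246 on control, 9132 on c9,t11-CLA and 7378 on t10,c12-CLA, at -0.61 on t10,c12-CLA, but a second probe set stood at 0.03. Ndufs1 gave 3443 on control, 3412 on c9,t11-CLA and 4190 on t10,c12-CLA. Ndufs3 was high on c9,t11-CLA only, with 13190 on control, 20200 on c9,t11-CLA and 11498 on t10,c12-CLA and a log2 difference of 0.61 from control.

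Among the accessory subunits, 15 of 22 (68.2%) were below control on each CLA array, against 47.8% and 50.9% of all genes. Several subunits of the membrane arm stood lower on both: Ndufb8 with 13298 on control, 8255 on c9,t11-CLA and 9450 on t10,c12-CLA, Ndufb9 with 17618 on control, 12968 on c9,t11-CLA and 10551 on t10,c12-CLA, and Ndufb10 with 14162 on control, 11676 on c9,t11-CLA and 9009 on t10,c12-CLA. Control was the highest array for all 3 of these genes. Differences on t10,c12-CLA were -0.49, -0.74 and -0.65. Other members of the same arm differed less from control: Ndufb5, among the brightest probe sets of complex I, gave 30562 on control, 28599 on c9,t11-CLA and 26479 on t10,c12-CLA, Ndufb6 gave 11152 on control, 11732 on c9,t11-CLA and 12275 on t10,c12-CLA, and Ndufb7 gave 21643 on control, 21707 on c9,t11-CLA and 19908 on t10,c12-CLA. Ndufb5 stood at -0.10 and -0.21 on the CLA arrays, near the medians of complex I.

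Ndufc1 was low on c9,t11-CLA only, with 9442 on control, 6268 on c9,t11-CLA and 9797 on t10,c12-CLA. Ndufa1 was lower on control than on the CLA arrays, with 524.3 on control, 783.2 on c9,t11-CLA and 715.2 on t10,c12-CLA, close to the floor. Ndufa10 was high on t10,c12-CLA only, with 1220 on control, 1231 on c9,t11-CLA and 1710 on t10,c12-CLA. Ndufab1, the mitochondrial acyl carrier protein, which also serves in complex I, gave 7768 on control, 6256 on c9,t11-CLA and 6648 on t10,c12-CLA, and Ndufa13 gave 3550 on control, 3828 on c9,t11-CLA and 4000 on t10,c12-CLA. Ndufaf1, an early assembly factor of the membrane arm, stood at -0.26 and -0.36 on the CLA arrays, whereas Ndufaf4 stood at 0.95 and -0.29. Ndufc2 passed the floor on the CLA arrays alone, with 259.0 on control, 731.0 on c9,t11-CLA and 567.5 on t10,c12-CLA, and was at least 1.49-fold and 1.16-fold higher there than on control. Ndufs4 and Ndufa12 lay below the floor on every array.

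Complex II, succinate dehydrogenase, also part of the citric acid cycle, split into its membrane anchors and its catalytic part. The anchor subunits were higher on both CLA arrays: Sdhc gave 15451 on control, 21298 on c9,t11-CLA and 21491 on t10,c12-CLA, and Sdhd gave 8850 on control, 12661 on c9,t11-CLA and 12495 on t10,c12-CLA. Their log2 differences from control lay between 0.46 and 0.52, about the size of the technical SD, and they differed between the CLA diets by 0.01 and -0.02. The flavoprotein Sdha gave 2160 on control, 1864 on c9,t11-CLA and 2040 on t10,c12-CLA. The iron-sulfur subunit Sdhb gave 24777 on control, 24504 on c9,t11-CLA and 19132 on t10,c12-CLA and stood at -0.37 on t10,c12-CLA and -0.02 on c9,t11-CLA.

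Complex III had the widest spread on c9,t11-CLA (SD 1.08), where Uqcc1 and Uqcr10 stood far below the rest. Below control lay 8 of 10 genes on c9,t11-CLA (median -0.15) and 7 of 10 on t10,c12-CLA (median -0.10), where 47.8% and 50.9% of all genes lay. Between the CLA diets 7 of 10 were above 0 (median 0.10), against 45.7% of all genes. Of the core proteins, Uqcrc1 gave 14436 on control, 20586 on c9,t11-CLA and 18784 on t10,c12-CLA, and Uqcrc2 gave 7402 on control, 6991 on c9,t11-CLA and 9934 on t10,c12-CLA. Uqcrc1 was lowest on control, and Uqcrc2 highest on t10,c12-CLA. Uqcrh, the hinge protein that meets cytochrome c1, gave 18976 on control, 15906 on c9,t11-CLA and 10780 on t10,c12-CLA, at -0.82 on t10,c12-CLA. Uqcrq, a ubiquinone-binding subunit, was high on c9,t11-CLA with 40857 on control, 58384 on c9,t11-CLA and 37420 on t10,c12-CLA, and -0.64 between the CLA diets. Uqcr11 and Uqcrb, small subunits, stayed between -0.21 and 0.12 in every comparison.

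Cytochrome c, Cycs, the mobile carrier between complexes III and IV, gave 1149 on control, 1548 on c9,t11-CLA and 1242 on t10,c12-CLA. It stood at 0.43 and 0.11 from control, the first value close to the technical SD of 0.49.

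Complex IV, cytochrome c oxidase, reduces oxygen to water. In the contrast of the isomers its genes lay mostly on 1 side: of 14 measured genes, 12 were lower on t10,c12-CLA than on c9,t11-CLA, with a median of -0.29, where 54.2% of all genes were lower. With equal medians 9 were lower (median -0.19), against 45.6% of all genes, and with quantile normalization 11 (median -0.33), against 52.5%. The muscle and testis forms described below were lower in 3 of 3 measured genes (median -0.37). Of these, Cox8b and Cox6b2 were read by probe sets whose identifiers mark cross-hybridisation or incomplete selection. Without the muscle and testis forms, the assembly factors and Cox7a2l, 6 of 7 subunits were lower (median -0.21), and with equal medians 4 of 7 (median -0.10). Against control the median was 0.09 over 13 genes on c9,t11-CLA, or -0.11 with equal medians, and -0.17 on t10,c12-CLA. No gene of complex IV was 2-fold apart between any pair of diets, among those above the floor on both arrays.

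The subunits with the brightest probe sets were Cox6a1, Cox7a2 and Cox6c. Cox6a1 gave 43280 on control, 45910 on c9,t11-CLA and 43203 on t10,c12-CLA, Cox7a2 gave 24180 on control, 19946 on c9,t11-CLA and 21714 on t10,c12-CLA, and Cox6c gave 26200 on control, 31629 on c9,t11-CLA and 22785 on t10,c12-CLA. A dimmer probe set of Cox6c went the other way on c9,t11-CLA against control, at -0.35 where the brighter stood at 0.27. Cox5b, which binds zinc, gave 14691 on control, 13134 on c9,t11-CLA and 13098 on t10,c12-CLA. Cox7b was low on t10,c12-CLA with 10697 on control, 11548 on c9,t11-CLA and 7243 on t10,c12-CLA, -0.67 from c9,t11-CLA. Cox4i1, the largest nuclear subunit, gave 1363 on control, 1278 on c9,t11-CLA and 887.4 on t10,c12-CLA, at -0.62 on t10,c12-CLA against control. A second, dimmer probe set of Cox4i1 ran the other way between the CLA diets, at 0.32 against -0.53, so the direction depended on the probe set. Cox6b1, a subunit on the side of the intermembrane space, was lowest on control with 643.7 on control, 1037 on c9,t11-CLA and 898.1 on t10,c12-CLA. Cox7a2l, which joins complexes III and IV into supercomplexes, gave 5782 on control, 5894 on c9,t11-CLA and 4767 on t10,c12-CLA.

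The assembly factors of complex IV handle copper and insert its core. Cox17, the copper chaperone, was highest on control with 6223 on control, 3535 on c9,t11-CLA and 4491 on t10,c12-CLA, -0.82 on c9,t11-CLA. Cox16 was low on t10,c12-CLA with 2896 on control, 2529 on c9,t11-CLA and 1621 on t10,c12-CLA, -0.84 from control. Cox18, which inserts a core subunit into the membrane, gave 3250 on control, 4038 on c9,t11-CLA and 3941 on t10,c12-CLA, and Cox14 lay below the floor on every array. Over the assembly factors of all complexes, 6 of 8 measured were below control on each CLA array, with medians of -0.18 and -0.32. For all genes the shares below control were 47.8% and 50.9%.

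Several complex IV subunits exist in forms made in different tissues. The forms typical of heart and skeletal muscle, Cox6a2 and Cox7a1, lay below the floor on every array, at most 287.8 and 129.4. Cox8b, also a muscle and brown fat form, gave 1148 on control, 2020 on c9,t11-CLA and 1563 on t10,c12-CLA by its brighter probe set, while its other probe set stayed below the floor at 53.5, 415.1 and 200.8. The brighter one has an identifier that marks cross-hybridisation or incomplete selection, and the other has not. The testis forms were read too: Cox8c gave 3884 on control, 4991 on c9,t11-CLA and 4116 on t10,c12-CLA, and Cox6b2 gave 360.6 on control, 1003 on c9,t11-CLA and 660.7 on t10,c12-CLA, higher than control by at least 2.05-fold on the former CLA array and 1.35-fold on the latter. A second Cox6b2 probe set gave 448.4, 926.3 and 458.5 in the same order, above the floor on c9,t11-CLA alone. Another stayed below the floor, and every Cox6b2 probe set has an identifier that marks cross-hybridisation or incomplete selection. The second Cox8c probe set also stayed below the floor, at 39.6, 128.9 and 27.7. Cox8a, the form found in most tissues, liver included, lay below the floor, with 67.5 on control, 338.7 on c9,t11-CLA and 43.2 on t10,c12-CLA, as did Cox5a, with 92.6 on control, 486.1 on c9,t11-CLA and 296.0 on t10,c12-CLA. Muscle markers were mostly low: 10 of 15, among them Ckm, Acta1 and Mb, lay below the floor on every array, and the summed signal of the 15 was 3230 on control, 4875 on c9,t11-CLA and 3141 on t10,c12-CLA. Of 6 adipocyte markers on the array, Adipoq, Ucp1 and Cidea lay below the floor throughout and Lep lay above it on all arrays, at 2488, 2886 and 1414. Fabp4 gave 373.3, 529.4 and 798.4, and Cidec passed the floor on t10,c12-CLA alone, at 905.4. The adipocyte sum was 3642, 4345 and 4053, in the same order of diets. Both Cox8b, by its marked probe set, and the summed muscle signal were highest on c9,t11-CLA, but not every marker was higher there than on control. Myh7, Tnnc2, Mylpf and Actc1 were higher. So were Myh1, Myh2, Myh6, Myl2, Tnnt3, Tnni2 and Atp2a1, all of them below the floor on every array. Only Ckm, Acta1, Mb and Myh4 were lower, and of these Ckm, Acta1 and Mb lay below the floor on every array. The part of such cells in the result was not tested.

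ATP synthase lay below control on c9,t11-CLA in 10 of 13 measured genes (median -0.21) and on t10,c12-CLA in 8 of 13 (median -0.06). These counts are 76.9% and 61.5%, against 47.8% and 50.9% of all genes. The catalytic head and its central shaft were read by 4 genes, all of them below control or level with it on c9,t11-CLA. Of these only Atp5a1 belongs to the head itself. Atp5a1, its alpha subunit, gave 24830 on control, 24803 on c9,t11-CLA and 23898 on t10,c12-CLA, Atp5c1, the gamma shaft, gave 22707 on control, 18032 on c9,t11-CLA and 16992 on t10,c12-CLA, and Atp5e, the epsilon subunit, gave 12812 on control, 11272 on c9,t11-CLA and 15499 on t10,c12-CLA. For Atp5d, the delta subunit, the brightest of 3 probe sets measured on c9,t11-CLA stood at -0.49 against control and another at 0.30.

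The stator and membrane parts were more spread. Atp5j, coupling factor 6 of the stator, was highest on control with 12286 on control, 6892 on c9,t11-CLA and 8512 on t10,c12-CLA, at -0.83 and -0.53. Atp5pb, the stator arm itself, was lowest on c9,t11-CLA with 942.0 on control, 588.2 on c9,t11-CLA and 1174 on t10,c12-CLA, and differed between the CLA diets by 1.00, just short of 2-fold. Atp5md, by its marked probe set, was high on t10,c12-CLA with 20067 on control, 17292 on c9,t11-CLA and 30338 on t10,c12-CLA, 0.81 from c9,t11-CLA. Atp5mpl, a small proteolipid, was high on c9,t11-CLA with 12803 on control, 20195 on c9,t11-CLA and 14349 on t10,c12-CLA. Within the stator, Atp5o and Atp5pb thus ran in opposite directions on c9,t11-CLA, at 0.84 and -0.68. Atp5k, subunit e, which helps synthase dimers to form, gave 1460 on control, 1225 on c9,t11-CLA and 841.0 on t10,c12-CLA, and its partner Atp5l, subunit g, gave 33499 on control, 27608 on c9,t11-CLA and 28230 on t10,c12-CLA. The genes of the c ring, Atp5g1 and Atp5g2, gave 589.5 on control, 554.5 on c9,t11-CLA and 629.2 on t10,c12-CLA, and 2506 on control, 3010 on c9,t11-CLA and 2404 on t10,c12-CLA. Atp5j2 lay above the floor on c9,t11-CLA alone, at 525.2.

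Repeated probe sets of members did not always agree. Of 6 members with several measured probe sets, all probe sets had the same sign in 3 for c9,t11-CLA against control and in 4 for t10,c12-CLA against control, and in 1 of 7 between the CLA diets. Their technical SD was 0.20, 0.34 and 0.43. The widest gap was that of Ndufa3, whose bright probe set gave 20435 on control, 19930 on c9,t11-CLA and 18480 on t10,c12-CLA, while a dimmer one stood at 1.06 between the CLA diets. A further 11 probe sets carried several symbols of which at least 1 fitted the rule, and they were left out of all counts. Among them both probe sets of Cox7c and Gm12338 were brightest on c9,t11-CLA, with log2 differences from control of 0.50 and 1.86, and a probe set of Ndufs5 and Ndufs5-ps was brightest on t10,c12-CLA, at 0.67.

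Most members were bright, so the members were also set beside genes of like brightness. When measured genes were cut into 5 equal groups by mean signal, 43 members fell into the brightest. There the median log2 difference from control was -0.16 for members and -0.01 for 822 other genes on c9,t11-CLA, and -0.20 against -0.04 for 835 other genes on t10,c12-CLA. Below control lay 29 (67.4%) and 33 (76.7%) of the 43, against 50.5% and 54.3% of the other genes. Between the CLA diets the medians were -0.07 and -0.01. The dimmer groups held 4 to 10 members each and were mixed. On c9,t11-CLA members lay above other genes in the dimmest group (0.25 against 0.13) and in the next to brightest (0.04 against -0.03). On t10,c12-CLA they lay above them in the dimmest group (0.21 against -0.01). In the remaining dimmer groups they lay below other genes in these comparisons with control. Whether these gaps exceed the variation between mice cannot be told from 1 array per diet.

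**Figure D3:**
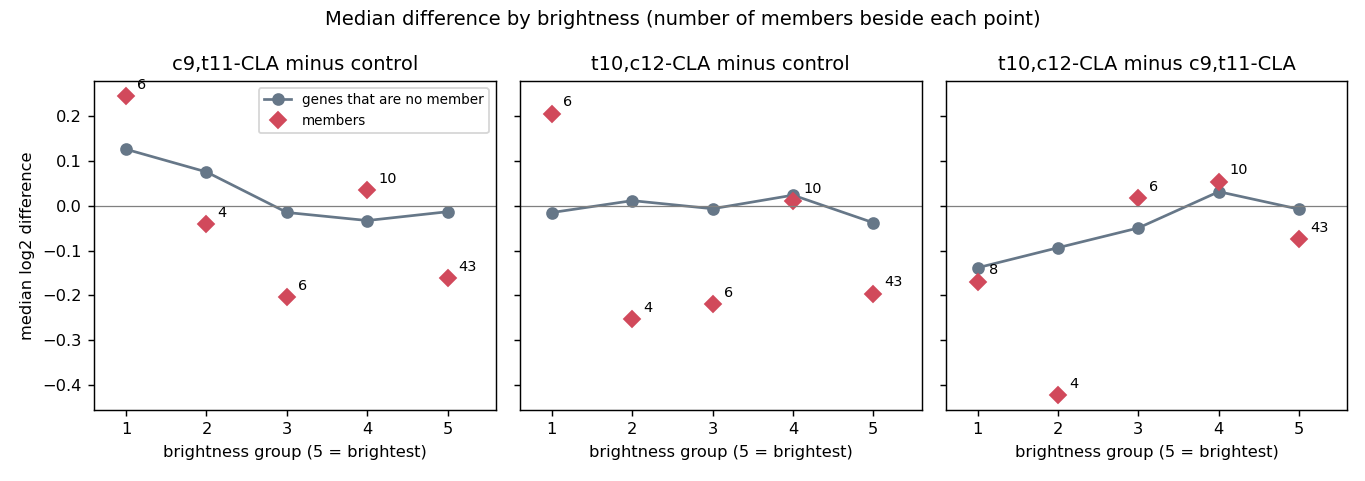
Median log2 difference of members (diamonds, with their number) and of all other measured genes (circles) in 5 groups of equal size by mean signal. In the brightest group, which holds 43 members, the members lie below the other genes in all 3 panels, at -0.16, -0.20 and -0.07.

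Other genes of the respiratory chain that the symbol rule does not reach were read from a list of carriers, cytochrome c1, electron-transfer flavoproteins and assembly factors. Of 14 measured, 9 (64.3%) were below control on each CLA array, against 47.8% and 50.9% of all genes, with medians of -0.14 and -0.20. Cyc1, cytochrome c1 of complex III, gave 32777, 27010 and 28382, values that, like those that follow, run from control through c9,t11-CLA to t10,c12-CLA. Etfdh, which passes electrons from fatty acid oxidation to ubiquinone, gave 7430, 2493 and 5189, at -1.58 and -0.52. Foxred1, a complex I assembly factor, gave 4126, 1850 and 3255, at -1.16 on c9,t11-CLA. These 2 genes were the only ones of the list at least 2-fold lower on c9,t11-CLA. Sdhaf1, an assembly factor of complex II, was highest on t10,c12-CLA at 2186, 2311 and 3366, and Etfa, a subunit of the electron-transfer flavoprotein, stood at -0.56 and -0.76.

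Pathways that feed the chain were read from lists too. Citric acid cycle enzymes were above control in 9 of 12 measured genes on t10,c12-CLA (median 0.30) and in 6 of 12 on c9,t11-CLA (median -0.08), and all 12 were higher on t10,c12-CLA than on c9,t11-CLA (median 0.26, range 0.02 to 0.63), also with equal medians and with quantile normalization. Of all genes 49.1% were above control on t10,c12-CLA and 52.2% on c9,t11-CLA, and 45.7% were higher on t10,c12-CLA than on c9,t11-CLA. The list left out succinate dehydrogenase, which was counted as complex II. Its subunits were mixed between the CLA diets, with Sdhb at -0.36, Sdhd at -0.02, Sdhc at 0.01 and Sdha at 0.13. Idh2 and Mdh2, the mitochondrial isocitrate and malate dehydrogenases, each stood at 0.68 on t10,c12-CLA against control, and Dld, a subunit of several dehydrogenase complexes, at -0.75 on c9,t11-CLA. Mitochondrial beta-oxidation, which supplies NADH and reduced flavoprotein, had a median of -0.70 over 13 genes on c9,t11-CLA and -0.09 on t10,c12-CLA. On c9,t11-CLA 8 of them were at least 1.5-fold lower, where 11.1% of all genes were. The genes were not uniform there: 9 lay below control and 4 above it, the highest at 0.68. Hadh stood at -1.37 and Decr1 at -1.28; Etfdh belongs to this list as well as to the respiratory list. The median of the oxidative phosphorylation members, -0.10, stands beside -0.70 for beta-oxidation on the same array, and the difference between the lists was not tested.

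The mitochondrial carriers and uncoupling proteins had medians of 0.00 over 8 genes and 0.06 over 7. Their largest difference was that of the acylcarnitine carrier Slc25a20, at -1.32 on c9,t11-CLA, a gene also on the beta-oxidation list, and Vdac2, an outer membrane channel, stood at -0.71 on t10,c12-CLA. Protein import genes were lower in 13 of 19 on c9,t11-CLA (median -0.24) and 15 of 21 on t10,c12-CLA (median -0.13), where 47.8% and 50.9% of all genes were. Among them were the small chaperones Timm8b, at -1.05 and -0.60, and Timm8a1, at -0.47 and -1.05, and the matrix chaperonin Hspe1 at -0.52 and -0.72. Regulators of mitochondrial gene expression had medians of -0.02 over 8 and -0.16 over 7. Gabpa, the DNA-binding subunit of GABP, gave 741.4, 652.2 and 580.9, and Gabpb1 630.3, 955.5 and 525.7. Ssbp1, the mitochondrial single-strand binding protein, was low on t10,c12-CLA at 1078, 1061 and 594.6. Esrra, a receptor that acts on respiratory genes, gave 3651, 3739 and 4135, while Ppargc1a and Tfam lay below the floor on every array.

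Ribosomal proteins, of the mitochondrion and of the cytosol, also lay mostly below control on t10,c12-CLA. Mitochondrial ribosomal proteins were below control in 33 of 53 genes on c9,t11-CLA (median -0.11) and 41 of 51 on t10,c12-CLA (median -0.16), with Mrpl17 at -1.19 on the former and Mrps10 at -1.36 on the latter. Cytosolic ribosomal proteins were below it in 13 of 25 (median -0.04, or -0.19 with equal medians) and in 22 of 25 (median -0.23). The shares of all genes below control were 47.8% and 50.9%. On t10,c12-CLA the median of the members, -0.13, lay between those of all genes and of the ribosomal lists, and nothing particular to the respiratory genes is read from it.

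**Figure D4:**
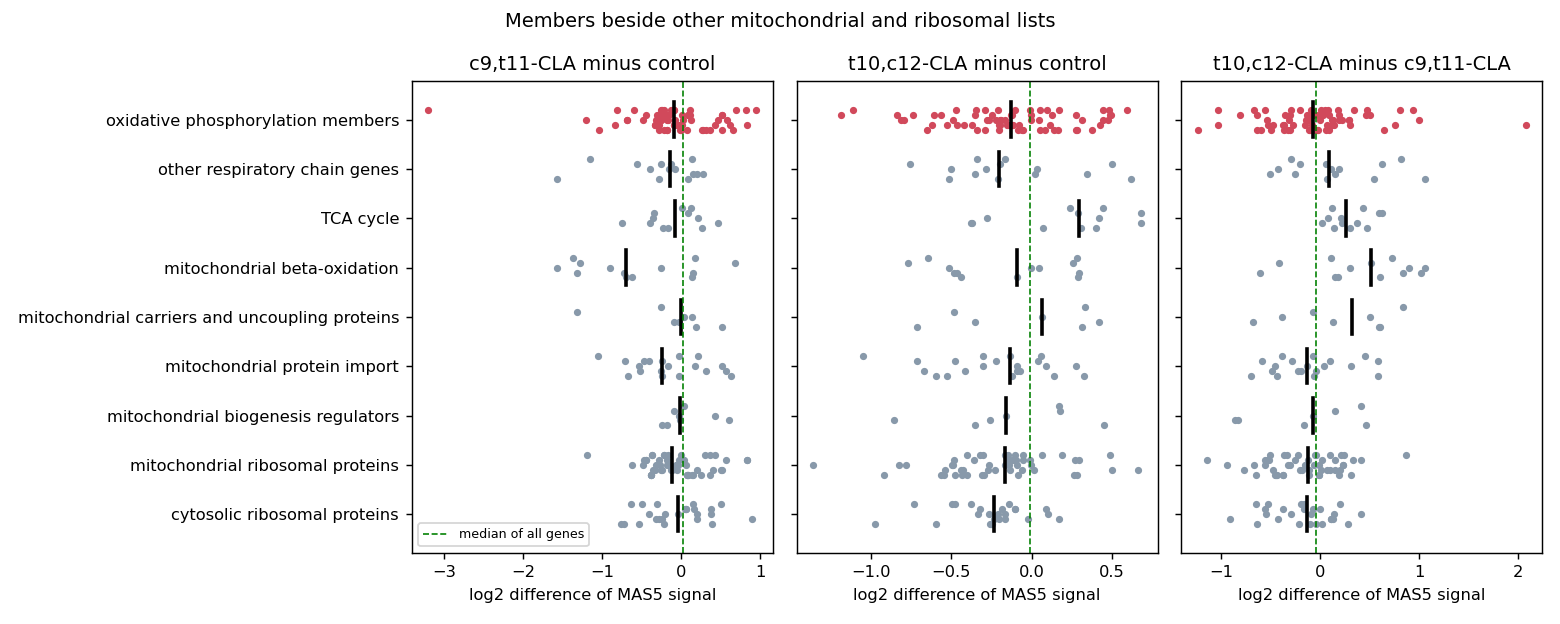
Log2 difference of MAS5 signal of each measured gene (points) in the oxidative phosphorylation group and 8 other lists, with the list median as a black bar and the median of all genes as a dashed line; each panel has its own horizontal scale. The citric acid cycle median is 0.30 in the middle panel and 0.26 in the right panel, and the beta-oxidation median is -0.70 in the left panel, while the oxidative phosphorylation medians are -0.10, -0.13 and -0.07.

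Summed signals of cell type markers differed between the 3 arrays. All 8 hepatocyte markers on the array were above the floor everywhere, and their summed signal was 134217 on control, 299182 on c9,t11-CLA and 153317 on t10,c12-CLA. Most of that sum on c9,t11-CLA came from Alb, at 101163 against 28437 on control, Apoa1, at 41606 against 3110, Apoa2, at 45446 against 16882, and Tat, at 54644 against 35584. Ttr went the other way, at 9384 against 17983, and Fgb and Tat were lower on t10,c12-CLA than on control. For 11 macrophage markers, 10 of them above the floor everywhere and Marco below it, it was 68583, 61318 and 94421, and for 9 stellate cell markers, 5 above the floor everywhere and Pdgfrb below it, 44950, 38740 and 55167. Summed signals of 8 endothelial markers were 14228, 14224 and 18968, and of 3 erythroid markers 36661, 36658 and 37910. The cholangiocyte markers Krt19, Krt7 and Epcam lay below the floor on every array. The sums of 8 lymphocyte markers were 4464, 4704 and 3565, and those of 6 neutrophil markers 2561, 3668 and 2447. The part of these differences in the small shift of the members was not tested. The 2%-trimmed mean was 1501 on each array, the highest signal was 135007 on c9,t11-CLA against 70778 and 71111 on control and t10,c12-CLA, and the ratio of 3′ to 5′ signal of Gapdh, a sign of RNA integrity, was 1.06, 0.98 and 0.78 in the order control, c9,t11-CLA, t10,c12-CLA. The same ratio of Actb was 1.40, 1.89 and 1.35, highest on c9,t11-CLA, where that of Gapdh was not.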

How the data were processed

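Per the labels, biotinylated cRNA was made from 8 µg of total RNA, and per the submitters' processing notes the authors made the deposited signal intensity values with MAS5. No MAS5 version is stated. The deposited arrays have equal 2%-trimmed means, and no further scaling was applied. Detection calls were not used here. The number of arrays, 1 per diet, limits the precision.

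Of 12488 probe sets, 66 were array controls; 10833 had 1 symbol, 396 several and 1193 none in the platform annotation. Symbols were updated through Entrez identifiers in the RefSeq table of GRCm38.p6, which held 10817 of the 10833. Where several probe sets read a gene, the one highest in mean log2 signal was used. The floor was 490.3. At least N-fold values set the brighter signal over the floor. No p-value was computed. The members and lists were chosen with earlier results of these data known.

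Named members were the 6 largest differences in each direction per comparison, all 2-fold members, the 3 brightest per complex, tissue forms and members with disagreeing probe sets; further members were named after their values were seen. Of each other list up to 4 measured genes with large differences were named, with some regulators and Cyc1 added after their values were seen. Alternatives were equal medians, quantile normalization, floors at the 25th and 75th percentiles, a pseudocount of 50, the mean over probe sets, leaving out probe sets whose identifier marks cross-hybridisation or incomplete selection (18 of 79 members are read by such a probe set), and the platform's symbols. Python 3.11.15, numpy 2.4.6, pandas 2.3.3, scipy 1.17.1 and matplotlib 3.10.9 were used. The code for the counts was run on simulated data with large changes planted in bright genes and less noise than in these arrays. That run does not show how reliable calls near 2-fold or near the floor are.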

Additional observations from a re-analysis of the deposited data

How the results depend on the processing

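Values of the members were recomputed under 8 alternatives. With equal medians of the arrays the median log2 difference of the members was -0.29 on c9,t11-CLA against control and 0.031 between the CLA diets. The same setting gave 5 members at least 2-fold lower on c9,t11-CLA against control (Atp5j and Cox17 joined), and 3 higher and 1 lower between the CLA diets. Quantile normalization gave 2 members 2-fold higher between the CLA diets, Uqcc1 and Atp5pb. With the floor at the 25th percentile 2 members were 2-fold higher than control on c9,t11-CLA and 1 on t10,c12-CLA (Ndufc2 in both cases, and Cox6b2), and a floor at the 75th percentile left 0 2-fold higher between the CLA diets, because Uqcc1 was then no longer measured on c9,t11-CLA. The members' median stayed below that of all genes by 0.09 to 0.19 on c9,t11-CLA and by 0.09 to 0.15 on t10,c12-CLA against control in the deposited setting and all 8 alternatives. At 2-fold, Ndufa2 lost its call with quantile normalization, and Ndufb3 and Atp5o lost theirs between the CLA diets with equal medians. Uqcc1 lay between -3.39 and -3.08 on c9,t11-CLA in the 7 alternatives that measured it. Single members moved by more than the technical SD only where the probe set could change, since a floor, the platform's symbols or equal medians leave a difference as it was or shift all genes alike. They were Ndufa3 with the mean over probe sets, at 0.33 from control on t10,c12-CLA and 0.47 between the CLA diets, and, without marked probe sets, Atp5d at -0.49 and Cox4i1 at 0.32 between the CLA diets. The cause was not tested. No paired analysis was possible because each diet had 1 array, and no array could be left out for the same reason. The brightness of a probe set over the floor limits the dim members, among them Uqcc1 on c9,t11-CLA and Ndufaf4 on t10,c12-CLA.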
